A study of Bos taurus with 17 samples.

Results

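Endothelial and angiogenic genes were followed in bovine cumulus cells, which form the somatic envelope of the oocyte, at 3 stages of the acquisition of developmental competence. The group consisted of 10 genes: the ligands VEGFA, ANGPT1 and ANGPT2, the receptors KDR, FLT1, TEK and ENG, and the endothelial markers VWF, CLDN5 and PECAM1. Members were the non-control probes that carried one of these symbols, or whose description named the gene where the array gave it a LOC number. The probe of VEGFA bore the older name VEGF and was recognized through its RefSeq accession. In total, 10 of the 21475 probes of the array belonged to 9 of the genes, out of 19808 gene names over the whole array, and no probe of FLT1 was found.

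NC1 cumulus cells surrounded immature (prophase I) oocytes from 3 to 6 mm follicles of 6 prepubertal calves aged 3 to 6 months. C1 cumulus cells surrounded immature oocytes of 6 adult cows of different ages. NC1 and C1 complexes were both aspirated after slaughter, and only those with compact cumulus layers were kept. C2 cumulus cells, expanded around mature oocytes, were taken from 5 Holstein non-lactating cows aged 3 to 5 years, from follicles above 8 mm. These cows received progestagen implants, FSH/LH and prostaglandin F2α, and were sampled in vivo by ovum pick-up 60 h after the prostaglandin. Stage could therefore not be told apart from animal age between NC1 and C1, nor from follicle size, hormone treatment and way of collection between C1 and C2. Each of the 17 samples was hybridized to 1 Agilent one-colour array, and precision is limited by the few arrays per stage.

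Angiogenesis, the growth of new vessels, is driven by VEGFA, a secreted growth factor that signals mainly through its receptor KDR (VEGF receptor 2), while FLT1 binds VEGFA and limits what reaches KDR. ANGPT1 activates the receptor TEK (Tie2) and stabilizes vessels, whereas ANGPT2 binds the same receptor and opposes ANGPT1 in many settings. In the ovary, vessels run in the theca outside the follicle's basement membrane, the granulosa and cumulus layers hold none before ovulation, and vessels grow inward when the corpus luteum forms.

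Levels are given as the log2 of the background-corrected signal relative to the median probe of the array, so that 0 is that median and 1 unit is a doubling. They compare arrays for 1 probe and do not rank different genes. A probe was tested when at least 80% of the NC1, of the C1 and of the C2 arrays detected it, as was the case for 13865 probes. The differences were tested with limma over these probes, with an adjusted p under 0.01 as the threshold. SD is the spread between arrays of a stage. For genes whose C2 arrays did not overlap those of NC1 or C1, an exact permutation test (2-sided) gave p = 0.00433, and 5 arrays against 6 permit no smaller value. Each value averages all RNA of a sample, so that a change in the share of a cell type and a change of RNA per cell cannot be told apart.

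Across the arrays, 66.2% to 82.8% of the probes were well above background and 0 spots were saturated. The 5 C2 arrays were less alike than those of the other stages. C2 replicates 1 and 5 differed with an SD of 0.44 (log2, over tested probes) and replicates 3 and 4 with one of 0.51, as close as arrays of NC1 (0.43 to 0.69) or C1 (0.45 to 0.76). The other 8 pairs of C2 arrays differed with an SD of 1.05 to 1.27. Replicates 3 and 4 were scanned on another day than replicates 1, 2 and 5, and each scan day also held 3 NC1 and 3 C1 arrays. Of the cumulus and granulosa markers, 10 of 11 were well above background on all arrays, and AMHR2 on all but 2 C2 arrays. The RNA of the oocyte markers varied as well: their summed signal, relative to the array median, was 55.9 to 134 on NC1 arrays, 5.40 to 52.5 on C1 arrays and 3.33 to 7.89 on C2 arrays, and its part in the results below was not tested.

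The probes are 60-base oligonucleotides, and what each measures depends on where in the transcript it lies. Stretches of 30 bases are shown for the 6 genes that differed between stages, since each of these changes rests on a single probe. In capitals is AATAAA, the signal that precedes the poly(A) tail of many transcripts, which was searched in the printed sense.
VEGFA: ctaaatcaccgagcccggaagattagagag
ANGPT1: agggaagaaactgttaagctcactgtgctt
ANGPT2: gcctcctcttaggagctttaaattttcatt
KDR: ttctgaaatggaggagggagattctgacag
TEK: atatagtaagtgAATAAAtgtcttgcctac
ENG: atactcaccaccAATAAAtcagaccatgaa
The stretches of VEGFA, ANGPT1, ANGPT2 and KDR are the first 30 bases of the probe. Those of TEK (bases 30 to 59) and ENG (bases 31 to 60) hold the AATAAA of these probes, at positions 42 and 43 from the 5′ end. The motif occurred in 14.3% of the 15239 probes of this length in the deposited table, and of the 9 tested member probes only those of TEK and ENG held it. The probe of CLDN5 had the highest GC content of the 9, with 78.3% against a median of 43.3% over the table.

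Among the 9 genes tested, 3 rose (ANGPT1, KDR and ENG) and 2 fell (VEGFA and ANGPT2) at C2 stage in comparison to C1. In comparison to NC1, the same 3 rose and TEK fell besides VEGFA and ANGPT2. Over all tested probes, 15.3% rose and 12.8% fell from C1 to C2, and 15.5% rose and 12.6% fell from NC1 to C2. The median log2 difference of the 9 genes was -0.06 against C1 and 0.12 against NC1, beside 0.02 and 0.11 over all tested probes. The members thus split into large rises and falls around a median near that of the array. Arrays of C2 and C1 did not overlap for 4 genes, with ANGPT1 and KDR above and VEGFA and ANGPT2 below, beside 10.7% above and 11% below over all tested probes. Arrays of C2 and NC1 did not overlap for 6 genes, with ENG above and TEK below in addition, beside 10.6% above and 10.3% below. Over the 3 stages together, 6 of the 9 genes differed by the moderated F of limma, beside 28.6% of all tested probes. Both comparisons share the C2 arrays. With scaling by the 75th percentile, the median over all probes moved to -0.11 against C1 and -0.04 against NC1. The share of rises among all called probes depended on the scaling as well. Against C1 it was 54.4%, but 45.7% with 75th percentile scaling, 47.3% with quantile normalization and 49.8% with normexp background correction. Against NC1 it was 55.3%, but 45.5%, 46.7% and 67.3% in the same order.

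Between C1 and NC1, 0 of the 9 genes passed the threshold, beside 0.0577% of all tested probes (limma). At an unadjusted p under 0.05 (limma) there were 2 of the 9, ANGPT1 and TEK, beside 1365 of the 13865 tested probes. With array weights, which count less consistent arrays less, ANGPT1 was called higher and TEK lower in C1 (adjusted p = 0.00607 and 0.00460). The share of all tested probes called with these weights is not given here, so these calls are not set against it.

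**Figure D1:**
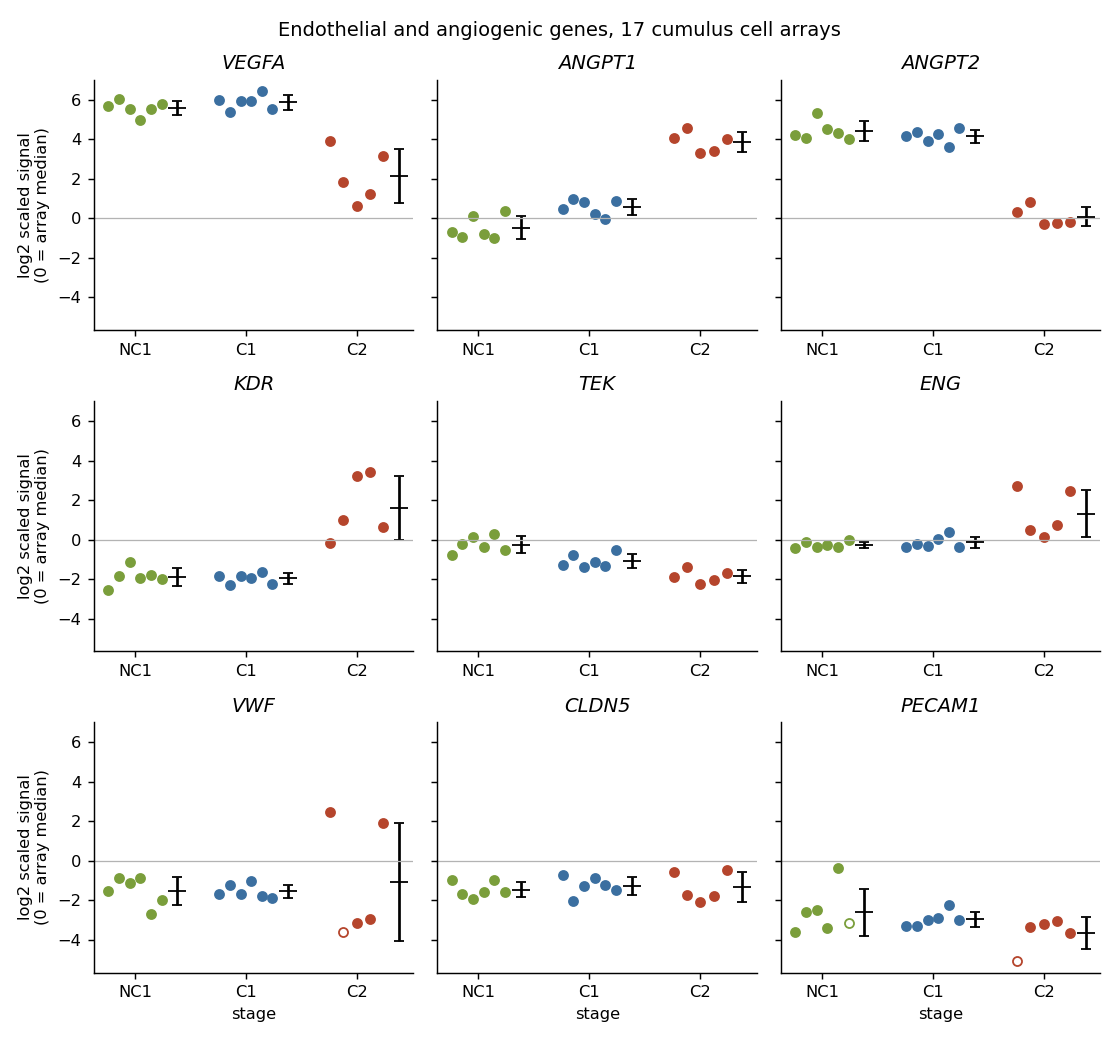
Log2 scaled signal of the 9 tested genes (vertical axis, 0 is the array median) on each of the 17 arrays, by stage. Each point is 1 array, in the order of its replicate number, and is open where the probe was not well above background. The bar beside each stage is the mean with its SD. VEGFA and ANGPT2 lie lower and ANGPT1 and KDR higher on all 5 C2 arrays than on any other array, and VWF separates C2 replicates 1 and 5 from the other 3. Heights compare arrays within a panel, not genes.

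VEGFA was high in both compact stages and fell at C2. Its level ranged from 4.99 to 6.05 over the NC1 arrays (median 5.61) and from 5.40 to 6.43 over the C1 arrays (median 5.95). At C2 it was 3.94, 1.83, 0.64, 1.21 and 3.16 on replicates 1 to 5. All C2 arrays lay below all others, and replicates 1 and 5 were the least reduced. The difference was -3.72 (SE 0.44, adjusted p = 2.36e-06) against C1, a 13.2-fold decrease, and -3.44 (SE 0.44, adjusted p = 5.90e-06) against NC1. Within a scan day the difference from C1 was -3.01 on the first and -4.84 on the second, and both passed the threshold. The stages NC1 and C1 differed by 0.28 (95% interval -0.60 to 1.15), less than their spread could separate.

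ANGPT2, the ligand that opposes ANGPT1 at TEK, fell at C2 with little spread between arrays. It ranged from 4.01 to 5.35 in NC1 (median 4.27) and from 3.61 to 4.57 in C1 (median 4.21). Its levels on C2 replicates 1 to 5 were 0.32, 0.83, -0.26, -0.25 and -0.17. The 5 C2 arrays lay close to each other and more than 2 units below every other array. The difference was -4.05 (SE 0.26, adjusted p = 1.70e-09) against C1, or 16.6-fold, and -4.32 (SE 0.26, adjusted p = 8.56e-10) against NC1, or 20.0-fold. It was -3.79 and -4.43 against C1 within the first and second scan day.

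ANGPT1, the activating ligand of TEK, moved in the opposite direction. It ranged from -0.98 to 0.36 in NC1 (median -0.73) and from -0.03 to 1.00 in C1 (median 0.65). The C2 replicates 1 to 5 gave 4.06, 4.56, 3.29, 3.42 and 4.04. All C2 arrays lay above all others, and the order of the stage means was NC1, C1 and C2. The rise was 3.32 (SE 0.29, adjusted p = 7.81e-08) over C1, or 9.97-fold, and 4.36 (SE 0.29, adjusted p = 3.04e-09) over NC1, or 20.5-fold. Against C1 it was 3.78 within the first scan day and 2.68 within the second. The lower neighbours in this order, NC1 and C1, overlapped and differed by 1.04 (SE 0.28, adjusted p = 0.128). Of the 6 C1 arrays, 4 lay above all NC1 arrays.

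The balance of both TEK ligands was followed as the difference of their log2 signals on each array. ANGPT2 minus ANGPT1 averaged 4.90 ± 0.63 (SD, n = 6) in NC1, 3.59 ± 0.33 (n = 6) in C1 and -3.78 ± 0.25 (n = 5) in C2. For C2 replicates 1 to 5 it was -3.74, -3.72, -3.55, -3.67 and -4.21, so that arrays that differed widely in other genes were alike in this one. These levels belong to different probes, and only their change can be read. The change was -7.37 from C1 to C2 and -8.68 from NC1 to C2, given without a test, since each gene alone already separated these arrays in opposite directions. From NC1 to C1 it was -1.31, with overlapping arrays (exact permutation p = 0.00866, not adjusted).

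KDR (LOC532646 on the array), the main receptor of VEGFA and a gene of endothelial cells, was low in both compact stages and rose at C2. It ranged from -2.53 to -1.16 in NC1 (median -1.91) and from -2.31 to -1.62 in C1 (median -1.90). It stood on C2 replicates 1 to 5 at -0.19, 0.98, 3.21, 3.42 and 0.64. All C2 arrays lay above all others, and replicates 3 and 4 stood more than 2 units above the other 3. The rise was 3.58 (SE 0.50, adjusted p = 1.69e-05) over C1, or 11.9-fold, and 3.49 (SE 0.50, adjusted p = 2.23e-05) over NC1, or 11.3-fold. Against C1 it was 2.37 within the first scan day and 5.35 within the second, both past the threshold. With normexp background correction, which adds an offset to low signals, it was 2.44 over C1 and 2.25 over NC1. NC1 and C1 differed by -0.08 (95% interval -1.08 to 0.92).

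The ligand VEGFA and its receptor KDR thus changed in opposite directions. VEGFA minus KDR averaged 7.48 ± 0.59 (SD, n = 6) in NC1, 7.84 ± 0.12 (n = 6) in C1 and 0.54 ± 2.92 (n = 5) in C2. At C2 it was 4.13, 0.85, -2.57, -2.20 and 2.52 on replicates 1 to 5. The spread at C2 exceeded that of the other stages, and the array with the highest VEGFA had the lowest KDR. Except for replicates 3 and 4, the order of the 5 arrays in VEGFA was the reverse of their order in KDR. The change was -7.29 from C1 to C2 and -6.93 from NC1 to C2, again without a test since the 2 genes alone separated the arrays. From NC1 to C1 it was 0.36 (exact permutation p = 0.186, not adjusted).

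TEK, the receptor of both angiopoietins, fell from NC1 to C2. It ranged from -0.80 to 0.30 in NC1 (median -0.30) and from -1.40 to -0.53 in C1 (median -1.20). On C2 replicates 1 to 5 it was -1.92, -1.39, -2.23, -2.05 and -1.70. All C2 arrays lay below all NC1 arrays, while C2 replicate 2 lay among those of C1. The difference of C2 from NC1 was -1.61 (SE 0.23, adjusted p = 1.85e-05), a 3.05-fold decrease. Within the first scan day it was -1.42 and missed the threshold (adjusted p = 0.0162), and within the second it was -1.89 (adjusted p = 2.60e-04). With normexp correction it was -0.73 (adjusted p = 0.00118). C1 lay between the other stages, at -0.78 (SE 0.23, adjusted p = 0.0101) for C2 against C1 and -0.83 (SE 0.22, adjusted p = 0.111) for C1 against NC1. The former was just above the threshold. It passed with 75th percentile scaling (adjusted p = 0.00135), quantile normalization (0.00884) and the scan day as a block (0.00963), and without C2 replicate 2 (0.00457) or NC1 replicate 1, 3 or 5 (0.00841, 0.00970 and 0.00819), while normexp correction gave -0.27 (adjusted p = 0.206).

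ENG (LOC615844 on the array), the co-receptor endoglin that modulates TGF-beta signaling in endothelial cells, was called higher at C2, and replicates 1 and 5 carried most of this change. It ranged from -0.43 to -0.03 in NC1 (median -0.31) and from -0.36 to 0.36 in C1 (median -0.26). On C2 replicates 1 to 5 it was 2.71, 0.47, 0.14, 0.73 and 2.44. C2 replicates 1 and 5 stood apart, and replicate 3 lay among the C1 arrays. The rise was 1.44 (SE 0.37, adjusted p = 0.00469) over C1 and 1.56 (SE 0.37, adjusted p = 0.00267) over NC1, which is 2.71-fold and 2.94-fold. Against C1 the call was lost without C2 replicate 1 (1.09, adjusted p = 0.0126) or 5 (1.15, adjusted p = 0.0153), and without C1 replicate 1, 3 or 6 (adjusted p = 0.0107, 0.0106 and 0.0102). It was also lost with 75th percentile scaling (adjusted p = 0.0120), with the slide as a block (0.0130) and with C2 and C1 alone in the fit (0.0224). Within the first scan day the rise over C1 was 1.99 (adjusted p = 0.0219) and within the second 0.59 (adjusted p = 0.116). Over NC1 it was 2.17 (adjusted p = 0.0146) and 0.65 (adjusted p = 0.0930), and with C2 and NC1 alone in the fit the adjusted p was 0.0139.

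**Figure D2:**
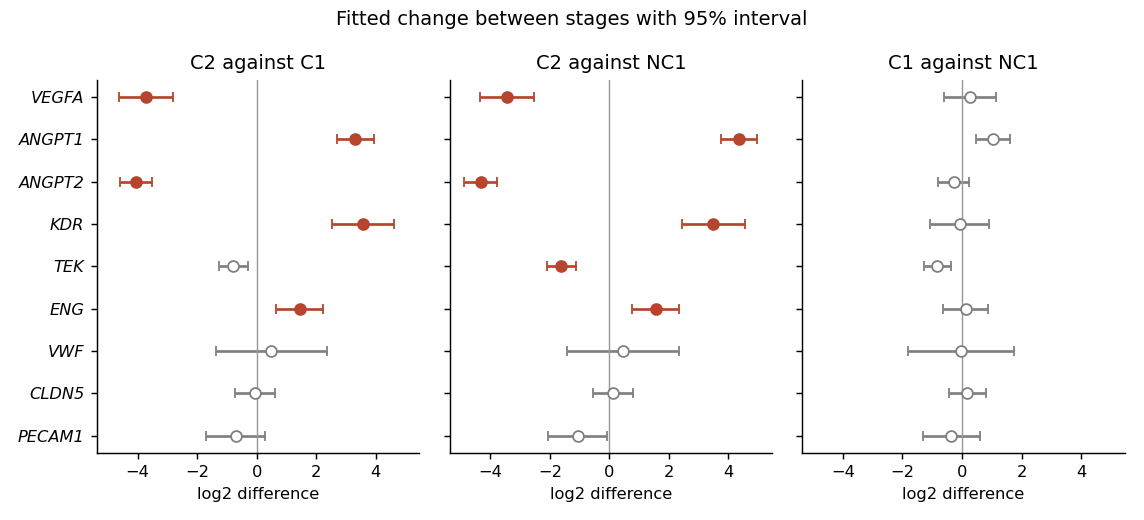
Fitted log2 difference (horizontal axis) of the 9 tested genes for the 3 comparisons of stages, from left to right C2 with C1, C2 with NC1 and C1 with NC1. Points are the limma estimates with their 95% intervals, filled where the adjusted p was under 0.01. The intervals of VEGFA and ANGPT2 lie below -2 and those of ANGPT1 and KDR above 2 in both comparisons with C2, whereas no gene is filled for C1 against NC1.

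The markers VWF, CLDN5 and PECAM1 did not pass the threshold in any of the 3 comparisons over all arrays. VWF (LOC614635 on the array), the clotting protein that endothelial cells store and secrete, ranged from -2.69 to -0.86 in NC1 (median -1.33) and from -1.86 to -1.02 in C1 (median -1.70). On C2 replicates 1 to 5 it was 2.46, -3.60, -3.13, -2.94 and 1.94, and on replicate 2 it was not well above background. Replicates 1 and 5 lay above and the other 3 below every other array, so that the mean difference of 0.49 from C1 (95% interval -1.38 to 2.37, adjusted p = 0.685) averages values on both sides. Without C2 replicate 1 it was -0.38, without replicate 5 it was -0.25, and within the second scan day, which held only C2 replicates 3 and 4, it was -1.72 (adjusted p = 0.00125). The first scan day gave 2.05 (adjusted p = 0.304). A second probe described as VWF (LOC508398) was well above background on 1 of the 17 arrays, a C1 array, and was not tested.

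CLDN5 (LOC617453 on the array), a tight junction protein of endothelium, differed by less than its spread between arrays. It ranged from -1.95 to -0.96 in NC1 (median -1.57) and from -2.05 to -0.74 in C1 (median -1.24). On C2 replicates 1 to 5 it was -0.54, -1.73, -2.11, -1.80 and -0.47, and again replicates 1 and 5 were the highest of the 17 arrays. The difference of C2 was -0.06 from C1 (95% interval -0.72 to 0.60) and 0.12 from NC1 (95% interval -0.53 to 0.79). Its sign varied with the setting.

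PECAM1, the adhesion molecule CD31 of endothelial cells, platelets and leukocytes, was dim at all stages. It ranged from -3.62 to -0.35 in NC1 (median -2.87) and from -3.32 to -2.25 in C1 (median -3.01). On C2 replicates 1 to 5 it was -5.08, -3.33, -3.20, -3.05 and -3.66. It was not well above background on C2 replicate 1 and on NC1 replicate 6, and its median signal was 14.7 to 23.2 intensity units per stage, beside a median background of 20 to 24 that had been subtracted. The difference of C2 was -0.70 from C1 (95% interval -1.70 to 0.29) and -1.06 from NC1 (95% interval -2.06 to -0.07, adjusted p = 0.0828). PECAM1 was lowest on the array where VWF was highest.

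**Figure D3:**
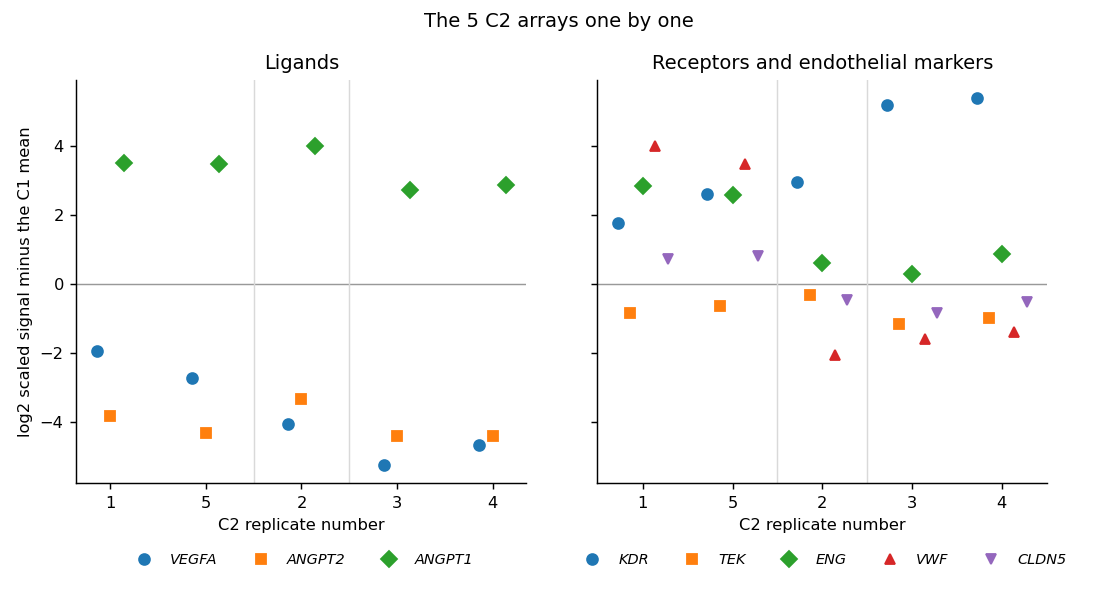
Log2 scaled signal of ligands (left) and of receptors and endothelial markers (right) on each C2 array, minus the C1 mean of the gene (vertical axis). Arrays are placed side by side by their likeness over all tested probes, and thin lines separate replicates 1 and 5, replicate 2, and replicates 3 and 4. ANGPT1 lies above and ANGPT2 below 0 on all 5 arrays, KDR is highest on replicates 3 and 4, and ENG, VWF and CLDN5 are highest on replicates 1 and 5.

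The 5 C2 arrays therefore did not move together in all of these genes. On all 5, ANGPT1 lay above and ANGPT2 below every NC1 and C1 array, though both were lowest on replicates 3 and 4, as was TEK. VEGFA, ENG, VWF and CLDN5 were highest and PECAM1 lowest on replicates 1 and 5, while KDR was highest on replicates 3 and 4. When the close replicates were averaged, leaving 3 values for C2, 3 genes still rose and 2 fell against C1. Whether the close pairs share an animal or a handling step is not stated in the labels or methods.

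The other endothelial markers gave a mixed account. Of 33 genes of this list, 30 had a probe and 13 were tested. At C2, 0 of them fell, beside 12.8% of all tested probes against C1 and 12.6% against NC1. However, 1 fell without C2 replicate 1 or 5 in both comparisons, and without C1 replicate 3 against C1. Since testing required detection in every stage, a gene lost or gained at C2 could not be counted. ROBO4, not tested, was well above background on 4 NC1, 5 C1 and 0 C2 arrays, and THBD, also not tested, on 2, 3 and 5. In comparison to both C1 and NC1, 4 of the 13 tested genes rose, beside 15.3% and 15.5% of all tested probes. These were CAV1, the caveolar coat protein also found in many other cells (6.91 over C1, SE 0.51, adjusted p = 8.36e-09), CLEC14A (6.25, SE 0.63, adjusted p = 4.13e-07), the adhesion receptor ADGRL4 (2.84, SE 0.32, adjusted p = 1.51e-06) and RASIP1 (1.37, SE 0.24, adjusted p = 1.79e-04). The median of the list was 0.65 over C1. Detection differed between the genes of the list, of which 10 were well above background on all arrays and 5 on none. The former included the nitric oxide synthase NOS3 and PLVAP, and the latter were CDH5 (VE-cadherin), EMCN, ERG, MMRN1 and SELE. TIE1, the partner of TEK, differed by -0.11 (adjusted p = 0.740) between C2 and C1. Among the 13 tested genes, LYVE1, NOS3, PLVAP, STAB1 and TAL1 were highest on C2 replicates 1 and 5, and ADGRL4 and CLEC14A on replicates 3 and 4. The share of all tested probes with either order was not counted, so that these genes only describe the arrays. NOS3, for instance, was 6.21, 3.53, 4.13, 4.25 and 6.92 on C2 replicates 1 to 5. The summed signal of the list, relative to the array median, was 30.8 to 59.0 on NC1 arrays, 34.3 to 49.0 on C1 arrays and 199 to 264 on C2 arrays. Such a sum follows the brightest probes, among them CAV1, at -1.94 to 0.85 on C1 arrays and 5.73 to 7.18 on C2 arrays. It is not a rise of the whole list, since 9 of the 13 tested genes were not called against C1.

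**Figure D4:**
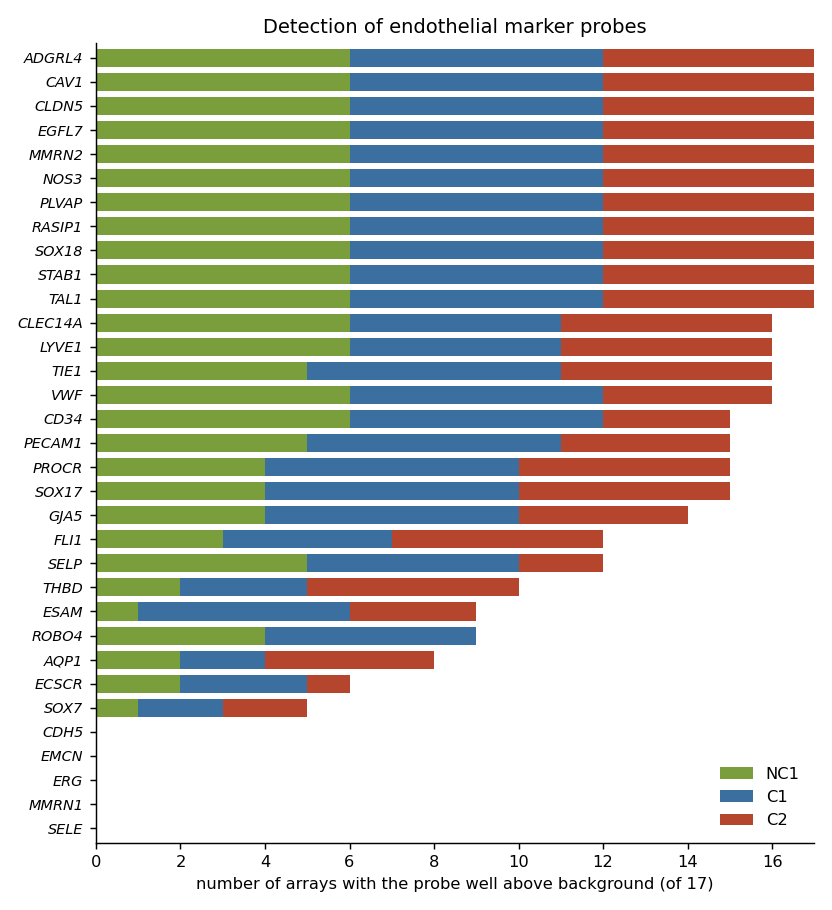
Number of arrays (horizontal axis, of 17) on which the probe of each endothelial marker was well above background, with NC1, C1 and C2 arrays stacked. Markers are the 30 genes of the list with a probe and VWF, CLDN5 and PECAM1. The bars reach 17 for 11 markers and are empty for CDH5, EMCN, ERG, MMRN1 and SELE.

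Markers of other cells also moved, and their counts stand beside 15.3% of all tested probes that rose and 12.8% that fell from C1 to C2. From NC1 to C2 these shares were 15.5% and 12.6%. Of the leukocyte markers, 10 of 17 were tested; 5 rose and 0 fell from C1 to C2, and 2 rose and 0 fell from NC1 to C2. These counts rested on single arrays. Against C1 there were 8 rises without C2 replicate 2 and 3 without C2 replicate 1 or 5 or C1 replicate 2, 3 or 6, and against NC1 there was 1 without C2 replicate 1 or 5 or any of NC1 replicates 1 to 5. CD163, CD68, CD79A, CSF1R, ITGB2, LAPTM5 and TYROBP were highest on C2 replicates 1 and 5, and CD14 and S100A8 on replicates 3 and 4. CD79A met this by little, with 3.09 on replicate 1 and 3.08 on replicate 2. The share over all tested probes was not counted here either. The macrophage receptor CSF1R was 2.69, -2.46, 0.41, 0.10 and 3.25 on C2 replicates 1 to 5, and the neutrophil and macrophage gene S100A8 was 0.74, -1.53, 5.76, 5.69 and 0.95. The summed signal of the leukocyte list was 29.7 to 56.1 in NC1, 25.8 to 47.3 in C1 and 26.3 to 108 in C2. Of the mural cell markers, 8 of 12 were tested. From C1 to C2, 1 rose (NOTCH3, 1.53, adjusted p = 8.16e-04) and 4 fell. The falls were those of MYH11 (-3.11, adjusted p = 9.63e-07), KCNJ8 (-4.33, adjusted p = 1.21e-08), CSPG4 (-1.19, adjusted p = 0.00372) and MCAM (-2.35 with its brightest probe). ACTA2, CNN1 and TAGLN were not called, at -0.75, -0.02 and -0.30. TAGLN was 5.18, 0.36, -0.37, -0.36 and 4.77 on C2 replicates 1 to 5. The other tested probe of MCAM gave -0.26 (limma adjusted p = 0.413). The summed signal of the mural markers was 121 to 203 in NC1, 122 to 188 in C1 and 22.2 to 115 in C2, where it was highest on replicates 1 and 5 (115 and 81.0). Of the theca and stroma markers, 8 of 11 were tested, and 2 rose (LUM and COL1A1) and 1 fell (TCF21; 2 fell without C2 replicate 2 or NC1 replicate 3) from C1 to C2. DCN, at -0.07 with its brightest probe, was not among them, but its other tested probe gave 4.08 over C1 (adjusted p = 1.17e-05) and 3.29 over NC1. CYP17A1 and INSL3 of this list were not called against C1, at -0.25 (limma adjusted p = 0.312) and -0.78 (adjusted p = 0.0221). The summed signal of the theca and stroma list was 167 to 302 in NC1, 193 to 302 in C1 and 292 to 603 in C2. This sum too follows its brightest probes, among them LUM, at 3.04 to 4.63 on C1 arrays and 6.16 to 8.64 on C2 arrays. Of the red cell and platelet markers, 2 of 13 were tested and 0 passed the threshold, and their summed signal was 3.50 to 4.01, 3.52 to 6.03 and 3.62 to 5.60 in the 3 stages. Of the granulosa and cumulus markers, 5 of 10 tested fell from C1 to C2 (AMH, CYP19A1, FOXL2, FSHR and HSD17B1), with summed signals of 5375 to 10860 in NC1, 5010 to 8309 in C1 and 2181 to 8072 in C2. CYP19A1 was -3.38, -1.15, 2.34, 2.43 and -3.74 on C2 replicates 1 to 5, and replicates 3 and 4 lay within its C1 range of 1.89 to 4.79. On C2 replicates 1 to 5 the sum of this list was 2363, 4468, 7456, 8072 and 2181, lowest where VEGFA, ENG, VWF and CLDN5 were highest and highest where KDR was highest. This sum follows its brightest probes, among them INHA, INHBA, SERPINE2 and GJA1, which were not called against C1. FOXL2 (5.02, 5.37, 5.32, 5.27 and 5.15) and FSHR (1.76, 2.83, 2.01, 2.04 and 1.62) were also lowest on replicates 1 and 5, but highest on replicate 2. The part of these cell types in the changes of the endothelial and angiogenic genes was not tested.

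Of the other ligands of the pathway, DLL4 and PGF showed the largest changes at C2, both of them falls. Of 25 genes with a probe, 20 were tested. From C1 to C2, 3 rose and 4 fell, beside 15.3% and 12.8% of all tested probes, so that the rises were near that share. From NC1 to C2, 2 rose and 5 fell, beside 15.5% and 12.6% (1 rose without C2 replicate 1 or 2 or NC1 replicate 1, 2, 3 or 6). DLL4, the Notch ligand that restrains sprouting, fell by 6.10 (SE 0.75, adjusted p = 3.72e-06) in comparison to C1 (-5.84 against NC1). Its C2 arrays lay below all others but were far apart, at -3.43, -1.78, 1.21, 0.94 and -4.23 on replicates 1 to 5. Placental growth factor PGF, a VEGFA relative that binds FLT1, fell by 5.03 (SE 0.32, adjusted p = 1.70e-09) in comparison to C1 (-4.98 against NC1). PDGFC fell by 2.18 (SE 0.38, adjusted p = 1.57e-04) with its brighter probe (-2.37 against NC1), and its other tested probe gave -2.07 and -2.09. ANGPTL2 fell by 2.04 (SE 0.20, adjusted p = 3.17e-07) in comparison to C1 (-2.21 against NC1). The VEGFA relatives VEGFB, VEGFC and VEGFD did not pass the threshold, at -0.32, -0.82 and 0.11 against C1. The median of the ligand list was 0.09 against C1 and 0.22 against NC1.

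Among the other receptors, EDNRA fell and RAMP2, MET and FGFR2 rose at C2. Of 23 genes, 19 were tested. From C1 to C2, 3 rose and 1 fell, beside 15.3% and 12.8% of all tested probes, so that the rises were near that share. From NC1 to C2, 5 rose and 1 fell, beside 15.5% and 12.6%. The endothelin receptor EDNRA fell by 5.50 (SE 0.30, adjusted p = 1.93e-10) in comparison to C1 (-4.88 against NC1). RAMP2, which with CALCRL forms a receptor of adrenomedullin, rose by 1.87 (SE 0.26, adjusted p = 1.50e-05) over C1 and 1.93 over NC1. MET, the receptor of HGF, rose by 1.55 (SE 0.23, adjusted p = 2.47e-05) and 2.33, and FGFR2 by 1.48 (SE 0.25, adjusted p = 1.33e-04) and 1.41. The VEGF co-receptors NRP1 and NRP2 did not pass the threshold, at 0.57 and -0.19 against C1 (1.25 for the other tested probe of NRP2, adjusted p = 0.0825), and the median of the list was 0.26.

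Among genes listed here as angiogenesis inhibitors, ADAMTS1, TIMP2, VASH2 and THBS2 rose at C2. Of 20 such genes, 14 were tested. From C1 to C2, 5 rose and 0 fell, beside 15.3% and 12.8% of all tested probes. From NC1 to C2, 4 rose and 1 fell, beside 15.5% and 12.6%. The falls became 1 against C1 without C2 replicate 2, and 2 against NC1 without C2 replicate 1, 3 or 4. The protease ADAMTS1, which also remodels the cumulus matrix, rose by 3.69 (SE 0.44, adjusted p = 2.58e-06) over C1 and 3.27 over NC1. TIMP2 rose by 3.11 (SE 0.28, adjusted p = 8.90e-08) and 3.15, VASH2, a vasohibin whose role in vessels has been described in both directions, by 2.99 (SE 0.33, adjusted p = 1.24e-06) and 3.00, and thrombospondin THBS2 by 2.96 (SE 0.51, adjusted p = 1.37e-04) and 2.57. The median of the list was 0.72 over C1 and 0.60 over NC1. The semaphorin SEMA3E was not among the tested genes and was chosen after its values were seen, so that no p-value is given. It was well above background on all 5 C2 arrays and on 0 of the others, and was at least 63.9-fold higher than at C1. For this bound, each undetected array was set at its dimmest detected probe, or at its own value where higher.

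VEGFA is a target of hypoxia-inducible factors, and genes of the hypoxia response were set beside it. Of 20 genes, 19 were tested, with a median of 0.08 against C1. From C1 to C2, 2 rose and 4 fell, beside 15.3% and 12.8% of all tested probes. From NC1 to C2, 3 rose and 3 fell, beside 15.5% and 12.6%. CA9, the carbonic anhydrase often used as a hypoxia marker, fell by 3.79 (SE 0.45, adjusted p = 2.41e-06) from C1, and EGLN3 fell by 2.33 (SE 0.35, adjusted p = 3.12e-05), although the other tested probe of EGLN3 gave -0.61 and missed the threshold. EPAS1, the HIF-2α subunit that endothelial cells also express, rose by 2.48 (SE 0.31, adjusted p = 5.39e-06) and NDRG1 by 2.29 (SE 0.25, adjusted p = 1.22e-06). HIF1A differed by 0.08 (adjusted p = 0.749), and the glycolytic enzymes ALDOA, PGK1 and LDHA did not pass the threshold either. ADM was counted both here and among the ligands, EGFL7 among ligands and endothelial markers, TIE1 and ROBO4 among receptors and endothelial markers, PDGFRB among receptors and mural markers, and PDGFRA among receptors and theca and stroma markers.

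**Figure D5:**
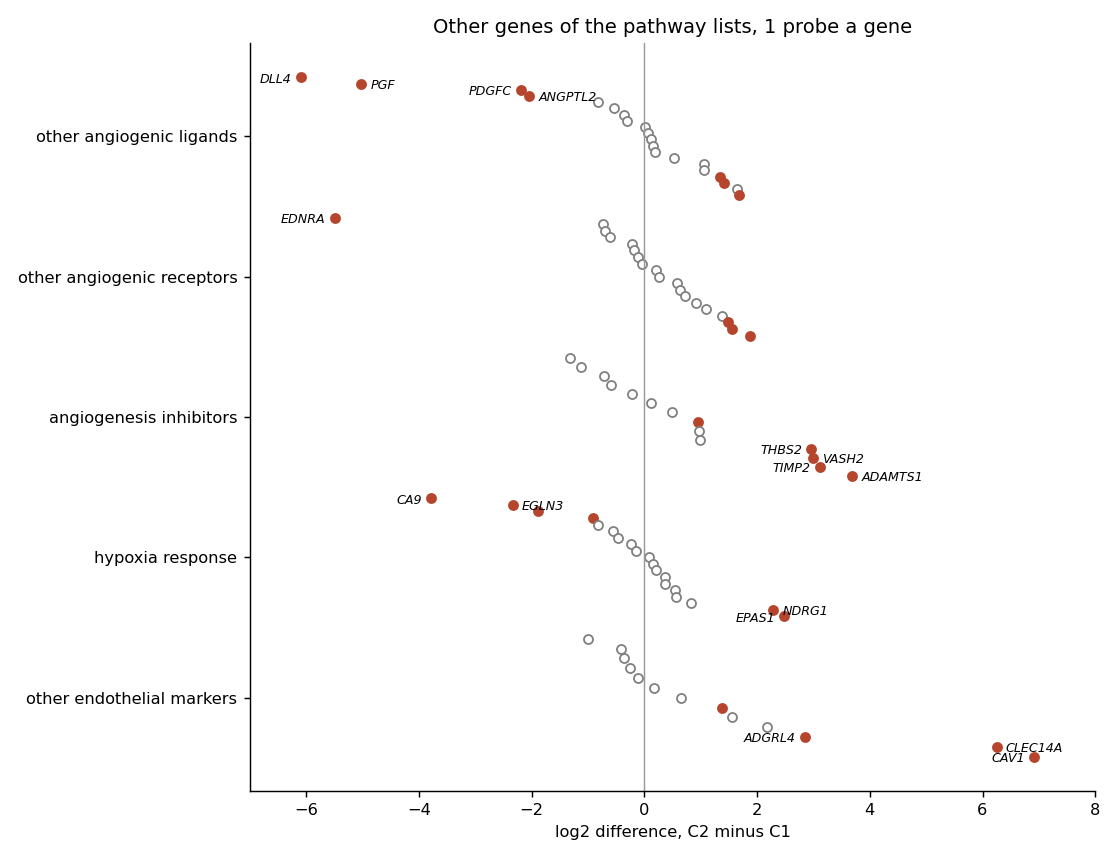
Log2 difference of C2 minus C1 (horizontal axis) for the tested genes of the other ligand, receptor, inhibitor, hypoxia and endothelial marker lists, with 1 probe a gene. Filled points passed an adjusted p under 0.01, and those beyond 2 units in either direction are named. DLL4, PGF and EDNRA lie farthest to the left, at -6.10, -5.03 and -5.50, and CAV1 and CLEC14A farthest to the right, at 6.91 and 6.25.

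Among tested probes with a gene symbol, the profiles closest to that of VEGFA over the 17 arrays were those of GRIN2D, SCN10A, ACTG2, ALDH1L1 and PHYHIP. After centring each probe on its own mean, their root mean square difference from VEGFA was 0.52, 0.53, 0.53, 0.55 and 0.58 on the log2 scale, against a median of 1.87 over all tested probes. All 5 were lower at C2, with differences of -4.12 to -2.67 from C1. This follows from their choice by likeness to VEGFA, which itself fell at C2, over the same arrays.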

How the data were processed

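Cumulus cell RNA of 17 samples was labelled with Cy3 and hybridized to one-colour arrays. The authors deposited linear intensity values per spot, background-corrected by Agilent Feature Extraction 10.5.1.1 and not scaled between arrays, and a table of log2 values scaled by array median, used here as an alternative. Stages came from the sample labels. For each probe, the log2 signal was averaged over its spots, without non-uniform and outlying ones, and the array median over non-control probes was subtracted. Spots were present when well above background, uniform and unsaturated. A probe was present with at least 0.5 of its spots, and tested when present on at least 80% of the arrays in every stage. Stages were compared with limma 3.58.1 in R 4.3.3 (lmFit and eBayes, 3 stages in 1 fit) with Benjamini-Hochberg adjustment over 13865 probes at 0.01, and checked on simulated data. For pairs of genes the threshold was 0.05, and the p-values of the NC1 to C1 changes are not adjusted. Exact tests used Python 3.11.15 with numpy 2.4.6. The 2-sided exact p is the doubled smaller tail. Symbols came from RefSeq (array names otherwise), and no coordinates are given since the files name no build. Lists were represented by the brightest tested probe of a gene. From each pathway list, up to 4 genes a comparison were named, those past the threshold without overlap and with the largest change. Further list genes with values are the known markers and relatives of the members. The members and lists were chosen with earlier results of these data known.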

Additional observations from a re-analysis of the deposited data

Results flagged for a closer look

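In 27 groups of 1 gene and 1 stage, the gap between the extreme array and its nearest neighbour was set against the range of the group, and 2 groups passed the 95% limit of Dixon's test, where chance flags about 1 in 20. NC1 replicate 3 was the highest in ANGPT2, at 5.35 against 4.51 for the next array, a gap of 0.626 of the range. NC1 replicate 5 was the highest in PECAM1, at -0.35 against -2.51, a gap of 0.659 of the range. Without NC1 replicate 5, PECAM1 differed by 0.09 between C1 and NC1 in place of -0.36, and by -0.61 between C2 and NC1 in place of -1.06, and it stayed below the threshold for a call. The C2 values of VWF, with 2 arrays high and 3 low, are not detected by this test.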

How the results depend on the processing

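The falls of VEGFA and ANGPT2 and the rises of ANGPT1 and KDR at C2 kept their direction and their call under every alternative run, including other scaling, background correction, filter and weights, the deposited table, the slide, scan day or replicate block, each scan day alone and each array left out. With the replicate block the differences from C1 were -3.73, -4.05, 3.43 and 3.54 for VEGFA, ANGPT2, ANGPT1 and KDR, and the block changed no call. Same-numbered arrays of different stages deviated from their stage means with correlations of -0.32 to 0.25, and 1 of 17 arrays correlated best with its own number, so that the numbers were not taken as pairs. With array weights, 1 gene rose and 1 fell between NC1 and C1 in place of 0, and the cause was not tested. Reversed values belonged to differences that missed the threshold in the main comparison. Against C1, CLDN5 turned to 0.10 with normexp, 0.12 with array weights and 0.23 within the first scan day, PECAM1 to 0.049 with normexp and VWF to -1.72 within the second scan day. Against NC1, C2 values turned to -0.024 (75th percentile) and -0.26 (second scan day) for CLDN5 and to -1.71 (second scan day) for VWF. Between C1 and NC1, normexp gave 0.033 for ANGPT2 and -0.10 for CLDN5, array weights 0.11 and the first scan day 0.17 for KDR, and the second scan day 0.013 for VWF. Leaving out 1 array at a time, VWF ranged from -0.38 to 1.13 (C2 against C1), -0.42 to 1.09 (C2 against NC1) and -0.27 to 0.10 (C1 against NC1), CLDN5 from -0.27 to 0.14 and -0.091 to 0.32 for C2, and, between C1 and NC1, KDR from -0.21 to 0.063 and PECAM1 from -0.56 to 0.093. Of the called probes, 55.3% rose from NC1 to C2 in the main comparison, against 67.3% with normexp, 45.5% with 75th percentile scaling and 46.7% with quantile normalization. Scan day alternatives and averaging of the close C2 arrays were chosen after seeing the data. The mean over several tested probes of a member was not run, since none had more than 1.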
